A study of Mus musculus with 6 samples.

Results

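Cohesin, condensin and CTCF shape chromosomes in the nucleus, and the 10 mouse genes described here encode parts of that machinery. They are the cohesin ring genes Smc1a, Smc3 and Rad21, the cohesin STAG subunit genes Stag1 and Stag2, the cohesin loader gene Nipbl, the boundary factor gene Ctcf, and the condensin genes Smc2, Smc4 and Ncaph. Each array probe set whose platform annotation gives 1 of these symbols alone was taken, which gave 33 of 45101 probe sets, for 10 of 18193 genes. Every gene had at least 2 of them. All were measured on the same 6 Affymetrix arrays of total RNA from NIH3T3, a mouse fibroblast line that grows without limit in culture.

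In 3 samples, called tethered, the labels place the genomic insertion at the nuclear periphery. In the other 3, called untethered, it lay in the centre of the nucleus. All 6 samples came from 1 clone, clone M, which carries several insertions of lacO, the DNA element bound by the bacterial lac repressor. Cells of both groups were grown in the same medium with 10% serum to about 80% confluency. Which protein tethers the insertion, and what induces it, the labels do not say. The labels number the samples 1 to 3 in each group and do not say whether they came from separate cultures, so p-values measure only how far these samples vary, which may be technical.

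Cohesin is a ring that holds DNA. The SMC proteins Smc1a and Smc3 form its sides, the kleisin Rad21 closes it, and either Stag1 or Stag2 binds the kleisin. Nipbl helps load the ring and drives loop extrusion, and loops often end where CTCF is bound. Condensin, built on Smc2 and Smc4 with a kleisin such as Ncaph, compacts chromosomes in mitosis, and transcripts of several condensin subunits are known to be higher in dividing cells. In fibroblasts both complexes are needed for cell division, while cohesin and CTCF also act on gene regulation in interphase.

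Values are given as log2 intensity, where a difference of 1 is a doubling of signal. A probe set was tested if its mean was higher than the median probe set (8.93), which held for 29 of the 33. The remaining 4, 1 of Nipbl and 3 of Smc2, are described by their values. The threshold lay between Smc2 probe set 1429660_s_at, with a mean of 8.926, and Stag1 probe set 1421939_a_at, with a mean of 9.111. Levels of different probe sets are not set against each other, since probes differ in brightness.

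For none of the 10 genes was a difference between tethered and untethered cells larger than the spread between arrays detected. Over the 29 tested probe sets, 10 log2 fold changes (tethered minus untethered) lay above 0 and 19 below, with a median of -0.07 and a range from -0.27 to 0.36. The median of all 22518 tested probe sets was -0.02, and 12594 of them lay below 0. In limma's test 0 of the 29 passed an adjusted p of 0.05, where 0% of all tested probe sets did. At an unadjusted p under 0.05 there were 0 of the 29 as well, where 2.38% of all tested probe sets passed. These were 160 higher (0.711%) and 376 lower (1.67%) in tethered cells, a split that was 249 and 277 after quantile normalization and 217 and 311 after centring arrays on their medians. Groups that did not overlap were found for 0 of the 29, where 8.16% of all tested probe sets had them (4.3% higher and 3.85% lower in tethered cells). In 24 of the 29 the fold change was smaller than its standard error, as it was in 15286 of all 22518 tested probe sets. The median standard error was 0.21 for the 29 and 0.10 for all tested probe sets.

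The sign of that median depended on which arrays were kept. It was 0.07 without tethered replicate 1 (20 values above 0, 10 below) and 0.05 without untethered replicate 3 (20 above, 9 below). It was -0.20 without tethered replicate 3 and -0.19 without untethered replicate 1, where 25 of 30 values lay below 0. Without both arrays numbered 1 it was -0.07. The count of 536 over all probe sets was as high as 1488 without tethered replicate 1, 1487 without both arrays numbered 1 and 932 without untethered replicate 3, and as low as 237 without tethered replicate 2 and 256 without untethered replicate 2.

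The precision differed among the genes. The 95% interval of the log2 fold change stayed between -1 and 1 in 25 of the 29 probe sets. It did so in 21378 of all 22518 tested probe sets. The exceptions among the 29 were both tested probe sets of Smc2, 1 of Ncaph and 1 of Rad21. The widest, of Smc2 probe set 1448635_at, ran from -1.50 to 1.34. In this fit, which has no replicate term, a change of 2-fold in either direction could not be told from none. Within numbers 1, 2 and 3 the differences of this probe set were -0.08, -0.12 and -0.04, but the numbers were not taken to pair the samples. The narrowest interval, of Stag1 probe set 1441724_at, ran from -0.15 to 0.18.

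**Figure D1:**
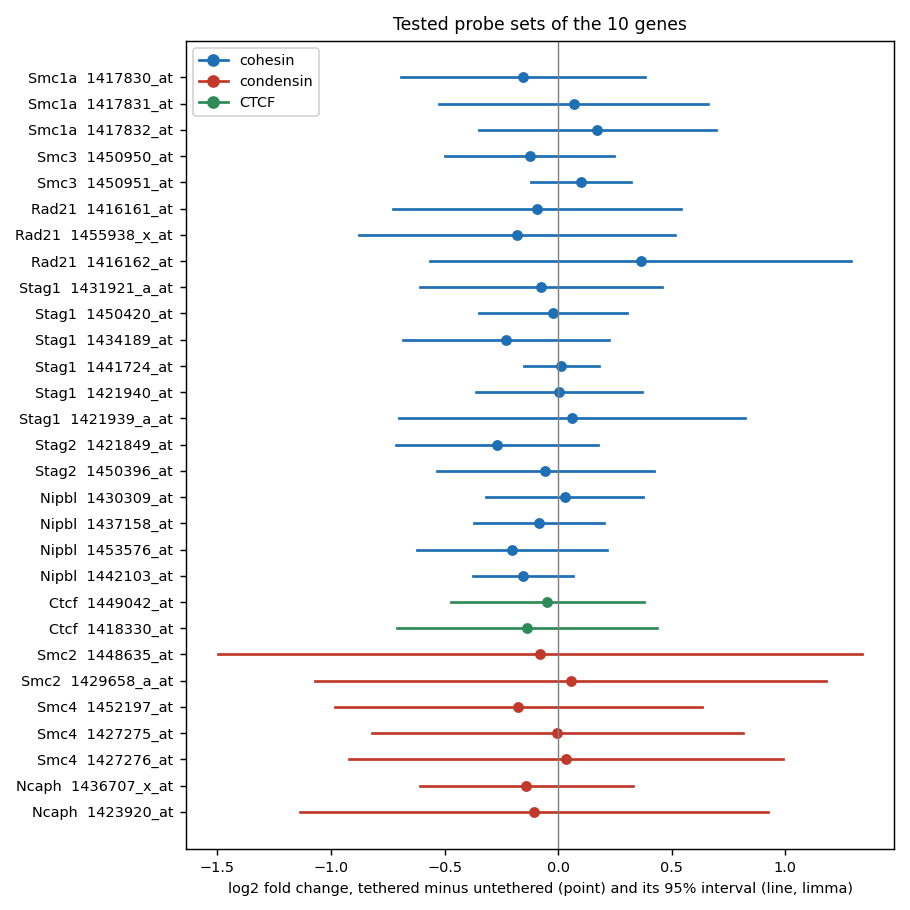
Log2 fold change of each tested probe set (points, x axis, tethered minus untethered) with its 95% interval from limma (lines), 1 row per probe set, coloured by complex. Every interval spans 0, and the widest belong to Smc2, from -1.50 to 1.34 on its brightest probe set.

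Among the cohesin ring genes, Rad21, the subunit that separase cuts at anaphase, was measured by 3 probe sets. The brightest, 1416161_at, had log2 intensities of 11.83, 12.36 and 12.53 in tethered replicates 1, 2 and 3, against 11.90, 12.43 and 12.67 in untethered replicates 1, 2 and 3. Both arrays numbered 1 were low and the groups overlapped throughout. The group means were 12.24 ± 0.37 in tethered and 12.33 ± 0.39 in untethered cells (SD, n = 3 each), so the log2 fold change was -0.09 (SE 0.26, limma adjusted p = 0.999).

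The other Rad21 probe sets did not move together. Probe set 1416162_at stood at 10.81, 11.43 and 11.64 in tethered cells, against 10.69, 10.41 and 11.68 in untethered cells, in the order of the replicate numbers. Untethered replicate 2 was its lowest array, although the same array was not low on the brightest probe set. Its log2 fold change was 0.36 (SE 0.38), and the difference was 0.12, 1.02 and -0.05 within numbers 1, 2 and 3. Probe set 1455938_x_at, whose suffix marks probes that may bind other transcripts, had a log2 fold change of -0.18 (SE 0.28).

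Smc1a encodes an SMC subunit of the ring. Its brightest probe set, 1417830_at, stood at 11.12, 11.51 and 11.62 in tethered cells, against 11.15, 11.83 and 11.74 in untethered cells. The arrays numbered 1 were again the lowest of each group. The log2 fold change was -0.15 (SE 0.22), and the other Smc1a probe sets gave 0.07 and 0.17, so the signs differed within the gene.

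Smc3, the partner of Smc1a, had a pair of probe sets that moved in opposite directions across arrays. Probe set 1450950_at stood at 11.07, 11.21 and 11.51 in tethered cells, against 11.15, 11.50 and 11.51 in untethered cells, lowest in the arrays numbered 1. Probe set 1450951_at stood at 10.34, 10.29 and 10.19 in tethered cells, against 10.33, 10.08 and 10.11 in untethered cells, highest in the arrays numbered 1. Their log2 fold changes were -0.13 (SE 0.15) and 0.10 (SE 0.090).

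Stag1 and Stag2 are alternative subunits, and a cohesin complex holds 1 of them. The brightest Stag1 probe set, 1431921_a_at, stood at 10.18, 10.59 and 10.82 in tethered cells, against 10.30, 10.59 and 10.92 in untethered cells. Its log2 fold change was -0.07 (SE 0.22), and the 6 Stag1 probe sets ran from -0.23 to 0.06. Stag2 probe set 1421849_at stood at 11.20, 10.62 and 10.65 in tethered cells, against 11.26, 11.11 and 10.91 in untethered cells.

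Stag2 had the lowest fold change of the 29 tested probe sets, -0.27 (SE 0.18, 95% interval -0.71 to 0.17, limma adjusted p = 0.999), on that probe set. Tethered replicates 2 and 3 were its lowest arrays, and tethered replicate 1 lay among the untethered ones. The other Stag2 probe set, 1450396_at, gave -0.06 (SE 0.20) with values of 10.56, 10.11 and 10.06 in tethered cells, against 10.55, 9.99 and 10.37 in untethered cells. Here untethered replicate 2 was the lowest array of all, so the pair disagreed on that array.

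Nipbl, the loader, had 4 tested probe sets with log2 fold changes of 0.03, -0.08, -0.20 and -0.16, from the brightest to the dimmest. The brightest, 1430309_at, stood at 10.46, 10.12 and 10.11 in tethered cells, against 10.41, 10.02 and 10.18 in untethered cells, highest in the arrays numbered 1. Probe set 1442103_at had the smallest unadjusted p of the 29 (0.136) and was lower in the tethered array within each replicate number, by differences of -0.15, -0.15 and -0.16. Its groups still overlapped, at 9.16, 9.11 and 8.95 in tethered cells and 9.32, 9.26 and 9.12 in untethered cells. The Nipbl probe set below the filter, 1443992_at, lay between 7.47 and 7.60 in tethered cells and between 7.44 and 7.56 in untethered cells.

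Ctcf encodes the zinc-finger protein at which many loops end. Probe set 1449042_at stood at 10.40, 10.55 and 10.94 in tethered cells, against 10.48, 10.65 and 10.91 in untethered cells, which gave a log2 fold change of -0.05 (SE 0.17). Probe set 1418330_at stood at 9.93, 10.18 and 10.58 in tethered cells, against 9.97, 10.47 and 10.67 in untethered cells, which gave a log2 fold change of -0.14 (SE 0.23). On both, replicate 1 was the lowest and replicate 3 the highest array of each group.

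The condensin gene Smc2 had the widest spread between arrays. Smc2 probe set 1448635_at stood at 9.93, 11.27 and 11.56 in tethered cells, against 10.00, 11.39 and 11.60 in untethered cells. Both arrays numbered 1 lay more than a full log2 unit below the other 4, and the group means were 10.920 ± 0.871 in tethered and 10.999 ± 0.868 in untethered cells (SD, n = 3 each). The log2 fold change was -0.08 (SE 0.58), and probe set 1429658_a_at gave 0.06 (SE 0.46).

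The 3 dim Smc2 probe sets were not tested. Probe set 1429660_s_at, just below the filter at a mean of 8.93, stood at 8.30, 9.28 and 9.43 in tethered cells, against 8.17, 8.84 and 9.52 in untethered cells. Probe set 1429659_at stood at 7.37, 8.35 and 8.49 in tethered cells, against 7.20, 7.59 and 8.67 in untethered cells. Both were lowest in the arrays numbered 1, as the tested ones were, while 1458479_at lay between 7.19 and 7.32 in tethered and between 7.23 and 7.67 in untethered cells.

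Smc4, the SMC partner of Smc2, followed the same order of arrays. Its brightest probe set, 1452197_at, stood at 11.05, 11.73 and 11.98 in tethered cells, against 11.19, 11.97 and 12.12 in untethered cells, which gave a log2 fold change of -0.18 (SE 0.33). The other Smc4 probe sets gave -0.0032 and 0.03, the first of these above 0 after quantile normalization (0.03) and after centring arrays on their medians (0.0048). Ncaph, the kleisin of condensin I, had 10.53, 10.98 and 10.97 on probe set 1436707_x_at in tethered cells, against 10.63, 11.15 and 11.13 in untethered cells. On its probe set 1423920_at the values were 8.97, 10.11 and 10.26 in tethered cells, against 9.26, 10.15 and 10.25 in untethered cells. The log2 fold changes were -0.14 (SE 0.19) and -0.11 (SE 0.42).

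**Figure D2:**
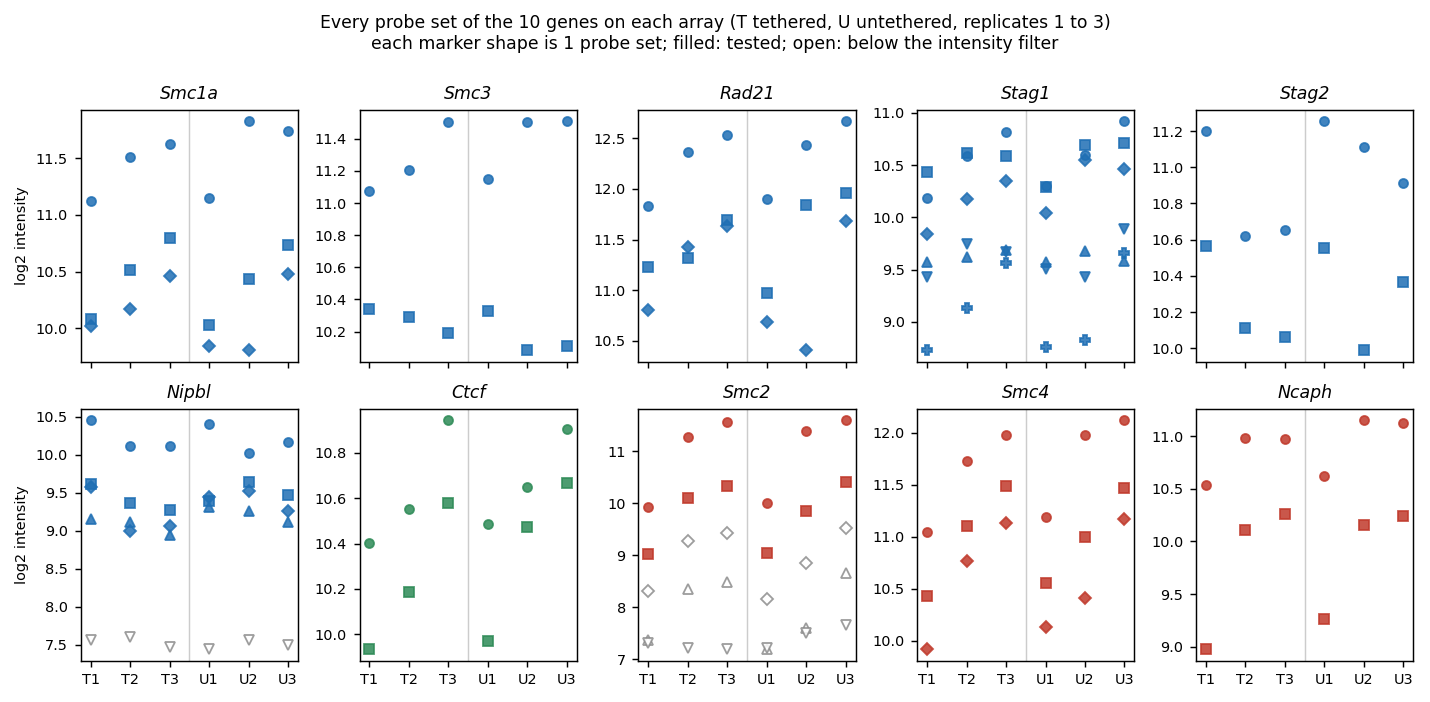
Log2 intensity (y axis, 1 scale per gene) of all 33 probe sets of the 10 genes on the 6 arrays (x axis: T tethered, U untethered, with the replicate number). Each marker shape is 1 probe set, filled where tested. Smc2 probe set 1448635_at lies at 9.93 (T1) and 10.00 (U1) and between 11.27 and 11.60 on the other arrays, while Stag2 is highest on T1 and U1.

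The arrays numbered 1, 1 from each group, thus stood apart in the same way in tethered and untethered cells. These arrays were singled out after the values were seen, and the labels do not say what a replicate number marks, so the following values are a description with no test. Of the 29 tested probe sets, 19 had both arrays numbered 1 below the other 4, where 23.3% of all tested probe sets did. Another 4 had both above the other 4, where 12.2% of all tested probe sets did. The median difference, replicate 1 minus the mean of replicates 2 and 3 and averaged over both groups, was -0.48 for the 29, where it was -0.02 for all tested probe sets. After quantile normalization or centring on array medians the count of 19 was 18, that of 4 was 4, and 0 of the 29 differences turned sign. In RNA from whole cultures, fewer cells with a transcript and less of it per cell cannot be told apart.

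Condensin was the lowest of the complexes in the arrays numbered 1. All 7 tested condensin probe sets had both of these arrays below the other 4, with a median difference of -0.85. Smc2 probe set 1448635_at differed by -1.49 in the tethered and -1.49 in the untethered group, a 2.81-fold lower signal. Only 0.528% of all tested probe sets had a difference as low. Ncaph probe set 1423920_at differed by -1.21 in the tethered and -0.94 in the untethered group, and Smc4 probe set 1452197_at by -0.81 and -0.85. The brightest Ncaph probe set, 1436707_x_at, differed less, by -0.44 in the tethered and -0.51 in the untethered group.

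The cohesin genes were split. Rad21 probe set 1416161_at differed by -0.62 in the tethered and -0.65 in the untethered group (1.55-fold lower signal), and Smc1a probe set 1417830_at by -0.45 and -0.63. Of the 6 Stag1 probe sets 5 had both arrays numbered 1 below the others, and 1431921_a_at differed by -0.52 and -0.46. Stag2 went the other way, with both of its probe sets higher in the arrays numbered 1. Probe set 1421849_at differed by 0.56 in the tethered and 0.24 in the untethered group, and 1450396_at by 0.48 and 0.37.

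Nipbl was on the same side as Stag2, with 0.34 and 0.31 on probe set 1430309_at. However, this was the only 1 of its 4 tested probe sets with both arrays numbered 1 above the others. Another, 1437158_at, had a value below 0 in the untethered group (-0.17). Smc3 had 1 probe set on each side. Ctcf was lower in the arrays numbered 1 on both probe sets, by mean differences of -0.32 and -0.52.

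**Figure D3:**
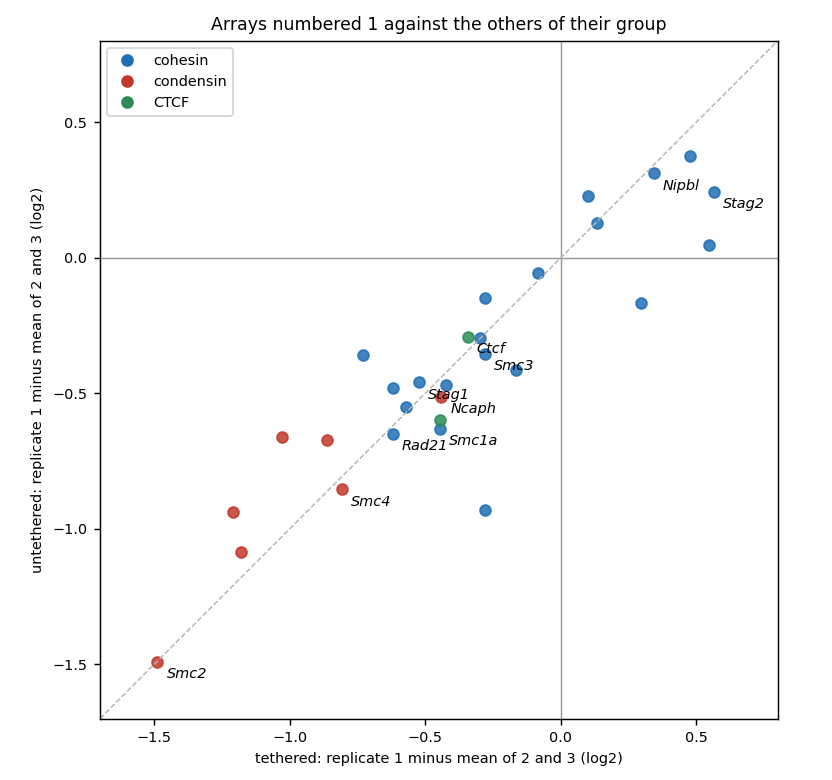
Replicate 1 minus the mean of replicates 2 and 3 in log2 intensity, in tethered (x axis) and untethered cells (y axis), for the 29 tested probe sets, with the brightest probe set of each gene named and the dashed line marking equal values. Smc2 lies lowest at -1.49 in both groups, and Stag2 and Nipbl lie above 0 in both.

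Promoter sequences were available for 6 of the 10 genes, from RefSeq on build GRCm38.p6, as windows from 250 bases before to 50 bases after the transcript start. They were searched on both strands for the CHR element TTTGAA and the CCAAT box, both found in promoters of many cell-cycle genes, and for TTGGCGC and TTCCCGC, which are parts of E2F sites. None of the 4 motifs lies within another. The motifs were chosen after the array values were seen. Shown are the condensin genes Smc2 and Ncaph and then Ctcf, all low in the arrays numbered 1, and Smc3, whose probe sets disagreed. Capitals mark the matches, and each sequence is written 5′ to 3′ in the direction of transcription.
Smc2, chr4:52438971-52439270, plus strand: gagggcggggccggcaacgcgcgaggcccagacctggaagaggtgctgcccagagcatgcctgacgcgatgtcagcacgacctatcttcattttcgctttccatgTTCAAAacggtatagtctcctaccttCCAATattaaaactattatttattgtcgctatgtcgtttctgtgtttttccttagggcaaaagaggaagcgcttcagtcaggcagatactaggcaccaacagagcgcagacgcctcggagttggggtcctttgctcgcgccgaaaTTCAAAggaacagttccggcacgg
Ncaph, chr2:127133905-127134204, minus strand: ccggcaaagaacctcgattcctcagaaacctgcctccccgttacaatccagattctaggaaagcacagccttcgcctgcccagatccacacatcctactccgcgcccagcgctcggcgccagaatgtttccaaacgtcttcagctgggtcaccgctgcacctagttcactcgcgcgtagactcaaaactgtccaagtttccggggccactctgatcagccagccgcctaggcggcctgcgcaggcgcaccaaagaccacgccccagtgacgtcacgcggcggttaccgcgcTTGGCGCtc
Ctcf, chr8:105636288-105636587, plus strand: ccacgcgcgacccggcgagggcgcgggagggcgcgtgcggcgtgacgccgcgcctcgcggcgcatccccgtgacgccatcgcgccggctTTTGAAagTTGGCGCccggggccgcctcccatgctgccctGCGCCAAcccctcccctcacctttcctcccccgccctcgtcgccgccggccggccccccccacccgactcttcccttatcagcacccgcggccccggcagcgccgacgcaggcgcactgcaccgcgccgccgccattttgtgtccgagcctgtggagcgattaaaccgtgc
Smc3, chr19:53600146-53600445, plus strand: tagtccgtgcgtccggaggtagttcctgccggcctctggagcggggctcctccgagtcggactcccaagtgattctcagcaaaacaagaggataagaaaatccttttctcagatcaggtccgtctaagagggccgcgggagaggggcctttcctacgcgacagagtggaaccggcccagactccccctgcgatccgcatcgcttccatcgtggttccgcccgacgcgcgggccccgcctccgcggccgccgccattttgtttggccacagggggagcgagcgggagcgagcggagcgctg

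The Smc2 window held TTTGAA on the minus strand at positions -145 and 27 from the start and CCAAT on the plus strand at -119. The Ncaph window held TTGGCGC at position 42. The Ctcf window held TTTGAA at -161 and TTGGCGC at -153 and, on the minus strand, at -121. The Smc3 window held 0 matches. Of 32851 promoter windows of the same length, 17.9% held TTTGAA, 37.4% held CCAAT, 2.45% held TTGGCGC and 4.6% held TTCCCGC. Of the windows not shown, Smc1a held CCAAT at -19 on the minus strand and TTCCCGC at 39, and Stag1 held CCAAT at -78 on the minus strand and TTCCCGC at -16. A match is a description of letters only.

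Genes of the same pathway that are not among the 10 were read from lists, each gene by its brightest tested probe set. The other condensin subunits had 5 of 5 genes with both arrays numbered 1 below the rest, where 25% of all tested genes did, and a median difference of -0.99. Over all their tested probe sets this was so for 7 of 8. Ncapg, a HEAT-repeat subunit of condensin I, stood at 9.03, 10.46 and 10.70 in tethered cells, against 9.15, 10.82 and 10.93 in untethered cells. Ncapd2, Ncapg2 and Ncaph2, the last pair from condensin II, differed by -0.98, -0.99 and -0.40. The Ncaph2 value is from 1439360_x_at, whose suffix marks probes that may bind other transcripts. Its other tested probe sets differed by -0.10 (1423698_at) and 0.03 (1423699_at), the latter without both arrays numbered 1 below the rest. All 5 fold changes between tethered and untethered cells lay below 0, from -0.24 to -0.06, where 6963 of 11846 tested genes lay below 0. Each was smaller than its standard error, as was so for 8161 of 11846 tested genes. Of the 5 genes, 0 were past an unadjusted p of 0.05, where 2.44% of all tested genes passed. Another tested probe set of Ncaph2, 1423698_at, gave 0.0059.

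Among 10 tested genes for loading, release, acetylation and cleavage of cohesin, 6 had both arrays numbered 1 below the rest. This was so for 25% of all tested genes, and the list's median difference was -0.30. Over its 21 tested probe sets, 11 had these arrays below and 2 above the rest, where 23.3% and 12.2% of all tested probe sets did. Pttg1, which encodes securin, the inhibitor of separase, differed by -0.84 on its brightest probe set. Its other tested probe sets differed by -0.40 (1424105_a_at) and -0.25 (1419620_at). Between tethered and untethered cells 8 of the 10 fold changes lay below 0 (median -0.10), where 6963 of 11846 tested genes did. Of the 10, 0 passed the adjusted threshold. By brightest probe set, 1 of the 10 genes was under an unadjusted threshold of 0.05, where 2.44% of all tested genes were. This was Pds5a, a regulator that binds the ring, with an adjusted p of 0.999 (limma). It stood at 10.41, 10.29 and 10.36 in tethered cells, against 9.95, 9.78 and 10.25 in untethered cells, with a log2 fold change of 0.36 (SE 0.13). Its groups did not overlap, as was so for 8.4% of all tested genes. The other tested probe set of Pds5a, 1441238_at, had a log2 fold change of 0.10 (SE 0.067), and its groups did not overlap either. Wapl, which releases the ring from DNA, had a log2 fold change of -0.14 (SE 0.13) on its brightest probe set. Its other tested probe set, 1434778_at, was lower in tethered cells at 9.26, 9.01 and 9.12, against 9.37, 9.48 and 9.39 in untethered cells. These groups did not overlap, as was so for 8.16% of all tested probe sets. The log2 fold change of 1434778_at was -0.28 (SE 0.086), under the unadjusted threshold but not the adjusted one. Over all 21 tested probe sets of the list 2 were under the unadjusted threshold, where 2.38% of all tested probe sets were. Cdca5, which encodes sororin, had a log2 fold change of 0.12 (SE 0.14) on its brightest probe set and -0.07 (SE 0.29) on 1448466_at. In the arrays numbered 1 the brightest Cdca5 probe set differed by -0.07 and 1448466_at by -0.68.

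The SMC5/6 complex, another SMC complex, active in DNA repair, with Smchd1, had 7 tested genes. By their brightest probe sets all had fold changes below 0 (median -0.10), where 6963 of 11846 tested genes did, and 0 passed either threshold. Other tested probe sets of Smc6 gave 0.04, 0.12 and -0.06. Nsmce2 stood at -0.14 (SE 0.089), Smc5 at -0.10 (SE 0.077), Nsmce4a at -0.10 (SE 0.10) and Smchd1, which acts on the inactive X chromosome, at -0.17 (SE 0.23). The other tested probe set of Smc5, 1426271_at, stood at 9.54, 9.33 and 9.40 in tethered cells, against 9.62, 9.73 and 9.75 in untethered cells. Its groups did not overlap, as was so for 8.16% of all tested probe sets. Its log2 fold change was -0.28 (SE 0.082). It was the 1 of 13 tested probe sets of the list under the unadjusted threshold, where 2.38% of all tested probe sets were, with 0 under the adjusted one. In the arrays numbered 1 the list was mixed, with 3 genes below and 1 above the other arrays, where 25% and 12% of all tested genes were, and a median of -0.10. Of the list of other looping factors, Yy1, Patz1, Ldb1 and Maz were tested. Their brightest probe sets had fold changes of -0.08, 0.04, -0.03 and -0.00024. Other tested probe sets of Yy1 gave 0.13, -0.03 and 0.14. Smc1b, a germline form of Smc1a, stood at 0.04 and was the 1 tested gene of the meiotic cohesin list.

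Cell-cycle genes stood beside condensin in the arrays numbered 1. Of 15 mitosis genes 14 had both of these arrays below the other 4, with a median difference of -1.50. Of 13 S phase genes 11 did, with a median of -0.99, where 25% of all tested genes did. Mki67, a marker of cycling cells, differed by -1.59, Cenpa, the centromeric histone, by -1.62 and Cenpe, a kinetochore motor, by -1.08. The remaining mitosis gene was Tpx2, whose tested probe sets disagreed. They differed by 0.05 on the brightest and by 0.10 on 1447519_x_at, and by -1.08 on 1428104_at and -0.33 on 1428105_at, both with the arrays numbered 1 below the others. Over each list's tested probe sets, 23 of 26 for mitosis and 26 of 30 for S phase had these arrays below the rest. This was so for 23.3% of all tested probe sets. Of the S phase genes named by p, Rrm1 differed by -1.29, Cdt1 by -0.37, Gins2 by -0.30 and Ccne1 by -0.04 on their brightest probe sets. The other tested probe sets of Gins2 (-0.98 on 1452881_at) and Ccne1 (-0.95 on 1416492_at) were lower, with both arrays numbered 1 below the rest. Between tethered and untethered cells the medians were -0.06 for mitosis and -0.01 for S phase. In either list 0 genes were past an unadjusted p of 0.05, where 2.44% of all tested genes were. Cell division itself was not measured, and any part of it in the values of the 10 genes was not tested.

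**Figure D4:**
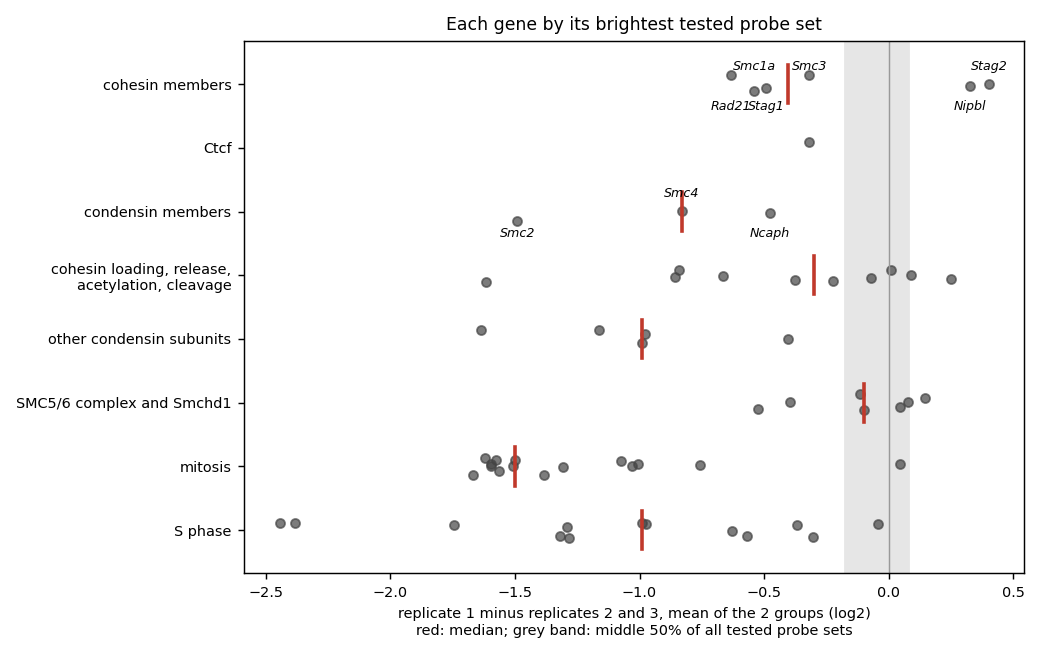
Replicate 1 minus replicates 2 and 3 in log2 intensity, averaged over the tethered and untethered groups (x axis), for each gene by its brightest tested probe set (points), in rows by list, with the list median in red and the middle 50% of all tested probe sets in grey. The 5 other condensin subunits have a median of -0.99 and the mitosis genes one of -1.50, while Stag2 and Nipbl lie above 0.

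The genes whose pattern over the 6 arrays was nearest to 3 of the 10 were found by the root mean square distance between log2 values, each gene centred on its own mean. Nearest to Smc2 were Ccnf, which encodes cyclin F, at a distance of 0.038, Tubb4b, a beta-tubulin gene, at 0.052, and Ppil1, a peptidyl-prolyl isomerase gene, at 0.057. The median distance of all other tested genes from Smc2 was 0.70. Nearest to Rad21 were Scoc at 0.026, Brca1, a DNA repair gene, at 0.034, and Raly, which encodes an RNA-binding protein, at 0.034, where the median was 0.32. Nearest to Ctcf were Tmem242 at 0.029, Dlat, a pyruvate dehydrogenase gene, at 0.042, and Stip1, a co-chaperone gene, at 0.043, where the median was 0.22. Ccnf stood at 9.14, 10.49 and 10.83 in tethered cells, against 9.20, 10.54 and 10.83 in untethered cells, low in the same arrays as Smc2.

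Probe sets of 1 gene disagreed most in untethered replicate 2. The disagreement was taken, on each array, as the range of a gene's probe sets after each was centred on its 6-array mean. For Rad21 it was 1.04 in untethered replicate 2 and at most 0.50 on the other arrays, and for Smc1a it was 0.65 against at most 0.26. In 8 of the 10 genes this array had the widest range, where 37.5% of the 4690 genes with at least 2 tested probe sets had theirs there. The exceptions were Smc3 and Ncaph, both widest in tethered replicate 1. The median range over the 10 genes was 0.43 in untethered replicate 2 and from 0.14 to 0.26 on the other arrays.

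Of 4 control transcripts with probe sets at the 5′ and 3′ ends, 3 had their lowest 5′ minus 3′ difference in that array. For the transferrin receptor, the log2 signal at the 5′ end minus that at the 3′ end was -2.09, -1.67 and -1.55 in tethered replicates 1, 2 and 3, against -2.81, -3.07 and -1.52 in untethered replicates 1, 2 and 3. The same difference for beta-actin was -0.29, -0.10 and -0.12 in tethered cells, against -0.31, -0.56 and -0.15 in untethered cells. For GAPDH it was 0.095, 0.088 and 0.082 in tethered cells, against 0.038, -0.060 and 0.076 in untethered cells. Pyruvate carboxylase did not single out untethered replicate 2, with 0.57, 0.56 and 0.71 in tethered cells, against 0.519, 0.522 and 0.592 in untethered cells. Their part in the disagreement among probe sets was not tested.

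Over the whole series, the array medians lay between 482.4 and 490.9 on the linear scale. Fibroblast markers such as Col1a2, Vim and Fn1 were measured above the filter in 8 of 8 cases, with an array mean of 12.66 to 13.14 in tethered and 12.99 to 13.26 in untethered cells. Both arrays numbered 1 lay below the rest in 5 of the 8, where they did in 25% of all tested genes. Col3a1, a collagen gene, differed by -1.18. All 8 fold changes lay below 0 (median -0.09), where 6963 of 11846 tested genes did. Pdgfrb, at -0.73 on its brightest probe set, was the 1 gene of 8 under an unadjusted p of 0.05, where 2.44% of all tested genes were. The other tested probe set of Pdgfrb, 1417148_at, gave -0.23 (SE 0.12), and its groups overlapped. Of the macrophage, epithelial and endothelial markers 3 of 5 each lay above the filter, and their part in the values of the 10 genes was not tested. Their array means lay from 8.70 to 8.76, 9.52 to 9.95 and 8.83 to 8.90 in tethered cells, against 8.71 to 8.85, 9.54 to 9.74 and 8.73 to 8.80 in untethered cells. By unadjusted p, 1 macrophage gene (Adgre1, -0.25), 0 epithelial genes and 1 endothelial gene (Pecam1, 0.18) were under 0.05, each of 3 tested and against the same 2.44%, and 0 passed after adjustment in any list. By brightest probe set, all 3 tested endothelial genes had groups that did not overlap, higher in tethered cells. This was so for 4.3% of all tested genes. Over all 5 tested probe sets of the list it was so for 3, where it was for 4.3% of all tested probe sets. The other tested Flt1 probe sets, 1440926_at and 1454037_a_at, gave 0.06 and -0.05, and their groups overlapped.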

How the data were processed

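The deposited values are linear intensities, 1 per probe set and array. No source used here gives the authors' summarising and scaling software. Array medians were nearly equal, so the deposited intensities were taken as scaled. Intensities under 16 were set to 16 and log2 was taken, so the log2 values were computed here from the deposited ones. Probe sets with a mean log2 above the median were tested (22518, for 11846 genes) with limma 3.58.1 in R 4.3.3, with no covariate, on all 6 arrays, two-sided, and p-values were adjusted by Benjamini-Hochberg over all of them. The number of arrays limits the precision, and no detection calls were used.

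Gene names were those of the platform annotation, brought up to date by Entrez identifier from RefSeq (GRCm38.p6), in which 99.4% of identifiers were found. Of the probe sets that were no controls, 34945 had 1 symbol, 932 several and 9160 none. The 64 controls were left out. Every probe set of the 10 genes is described. From each other list up to 4 tested genes with the smallest p are named, and for Rad21, Ctcf and Smc2 the 3 nearest genes. Genes that illustrate another point, including markers, and second probe sets of listed genes were named after their values were seen. Listed genes with 0 probe sets of their symbol alone were not analysed here. The members and lists were chosen with earlier results of these data known. The fit was tested on simulated data. Alternatives changed the floor, the filter, the scaling, the variance model, the replicate term and the arrays kept.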

Additional observations from a re-analysis of the deposited data

How the results depend on the processing

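With limma, 0 probe sets passed the adjusted threshold in the main analysis and under every alternative run: other floors, no filter, quantile normalization, median centring, a trended robust variance, the replicate number as a block, 1 array left out, and both arrays numbered 1 left out. For the members, the smallest adjusted p over 406 alternative values was 0.698. The count at an unadjusted p under 0.05, 536 in the main analysis, was 1782 with no filter, where more probe sets were tested, 1487 without both arrays numbered 1, and from 237 to 1488 with 1 array left out. The median of the members ranged from -0.20 to 0.07 with 1 array left out. After quantile normalization Stag1 probe set 1450420_at was 0.0191 and Smc4 probe set 1427275_at 0.0315, and this Smc4 probe set was 0.0048 after median centring and 0.0608 without both arrays numbered 1. The cause was not tested.

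Leaving out 1 array turned the sign of 19 member probe sets. Their log2 fold changes ran from -0.337 to 0.0114 and from -0.202 to 0.0678 for Ctcf, from -0.419 to 0.297 and from -0.311 to 0.00705 for Ncaph, from -0.0853 to 0.132 for Nipbl, from -0.309 to 0.114 and from -0.491 to 0.00505 for Rad21. They ran from -0.116 to 0.258 for Smc1a, from -0.306 to 0.448 and from -0.577 to 0.417 for Smc2, from -0.243 to 0.285, from -0.229 to 0.378 and from -0.461 to 0.093 for Smc4, from -0.15 to 0.349, from -0.0843 to 0.142, from -0.228 to 0.09996, from -0.0174 to 0.0466 and from -0.159 to 0.0543 for Stag1, from -0.216 to 0.0681 for Stag2. With the mean of a gene's tested probe sets in place of the brightest, the signs of Smc1a (0.029) and Rad21 (0.031) turned from below to above 0, and that of Nipbl (-0.103) from above to below.

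With the replicate block the count at an unadjusted p under 0.05 was 1232 (366 higher, 866 lower), and 3 of 29 member probe sets were among them (Stag2 1421849_at, Stag1 1434189_at and Smc4 1452197_at), where 5.47% of all tested probe sets were. The numbers were not taken to pair the samples: deviations from the group means correlated at 0.71, 0.075 and 0.71 between samples numbered 1, 2 and 3, and tethered replicate 2 correlated best with untethered replicate 3 (0.36). With 3 arrays a group, small differences were not detectable, whether in bright probe sets such as Smc2 1448635_at (SE 0.58) or in dim ones. No detection calls were used.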
